A study of Drosophila melanogaster with 41 samples.

Results

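The transcriptomes of elavmin and Δelav embryos, both mutant for the neuronal RNA-binding protein ELAV, were compared gene by gene at 14–16 h after egg laying (AEL). The comparison took in 8 of the 41 mRNA-seq libraries of the series, 4 of elavmin and 4 of Δelav, chosen by genotype and age and not by any measured value. Each library came from 15 whole male Drosophila embryos pooled, so that all tissues of the embryo contributed to every value. Both alleles lie in the elav gene on the X chromosome. The elavmin allele is a frame-shift made by genome editing, which disrupts the third RNA-recognition motif and leaves a truncated ELAV protein at very low level. The Δelav allele, made with a pair of guides, abolishes the protein. Embryos of 2 further genotypes of the same age served for orientation only. These were Δelav,fnenFNE, which carries Δelav together with an fne allele that can only make the nuclear form of the paralogue FNE (4 libraries), and wild type embryos of the w1118 strain (4 libraries). To rank genes by stage, 7–8 h embryos with the fnenFNE allele but without Δelav, and wild type adult heads, were also used. Mutant stocks were kept heterozygous over balancer chromosomes marked with GFP, and the mutant males were staged embryos without the GFP of the balancer. The labels give each library as a sample of its own. The study's methods call the embryo samples biological quadruplicates and the head samples triplicates, without saying how the collections were divided. The p-values therefore measure the spread between these pools of embryos.

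ELAV belongs to the ELAV/Hu family of RNA-binding proteins, which bind U-rich stretches in pre-mRNAs through their RNA-recognition motifs. In Drosophila neurons it directs the use of distal polyadenylation sites and of neuron-specific exons. The family has further members in the fly, FNE and RBP9, which are also made in neurons. At this age the embryonic nervous system is laid out, most neuroblasts have stopped dividing, and neurons begin to make the proteins of synapses and of transmitter release, while muscle and cuticle also mature. The question addressed by the comparison was what the small amount of truncated ELAV left in elavmin changes in gene expression relative to a complete loss of the protein.

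The study's methods place the elavmin indel at glutamine Q420, in the 483-residue ELAV protein of the annotation. Its supplement gives the change as TG replaced by CA, with the TT that follows deleted. In the sequence below the only tgtt lies just after the Q420 codon, so the capitals mark the codon named and not the altered bases. The reference sequence around the site is printed because it is the only difference by design between the elavmin allele and the normal gene. It is the coding strand of RefSeq's dm6 genome (Release 6) at X:517969-517998, on the minus strand of the chromosome, with the Q420 codon (517984 to 517986) in capitals.
elav edit site: gctgccctgtggCAGctgtttggtccattt

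Exon bin counts, in which a read spanning several bins can count in each, summed to between 28865495 and 36497233 per library in elavmin and between 29046462 and 30985465 in Δelav. The difference between the genotypes did not pass a two-sided exact permutation test (p = 0.629, where 4 libraries against 4 can give no less than 0.0286). The most 3-prime exon bin of each gene took 15.31% to 15.74% of the counts in elavmin and 14.95% to 15.7% in Δelav (exact permutation p = 0.229), and these ranges overlapped. Over the 8 libraries the first principal component held 45.5% of the variance and separated the genotypes, from −24.3 to −13.6 in elavmin and from 15.8 to 22.6 in Δelav. The second held 16.8% and had replicates 2 and 3 of both genotypes at its ends. Markers of muscle summed to 40800 to 42100 CPM (counts scaled to a common library size) in elavmin and 40700 to 42700 CPM in Δelav, those of hemocytes to 12100 to 13600 and 12700 to 14200 CPM, and those of cuticle-forming epidermis to 5050 to 6540 and 4880 to 6360 CPM. These overlapped, as did the sums of the 9 neuronal markers (2060 to 2290 CPM in elavmin and 2200 to 2570 CPM in Δelav), of which 3 were called higher and 1, elav itself, lower. The neuronal sums include this mutated gene, with means of 343 CPM in elavmin and 585 CPM in Δelav. Their overlap therefore does not show a like content of neurons. The sums of the 6 glial markers (604 to 613 CPM in elavmin and 645 to 674 CPM in Δelav) and of the 5 neuroblast markers (121 to 144 CPM and 149 to 163 CPM) did not overlap.

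Transcripts of elav, the gene that both alleles change (FBgn0260400, X, 509235 to 523226, minus strand) were lower in elavmin than in Δelav. They reached 339, 355, 333 and 344 CPM in the elavmin libraries, against 568, 646, 569 and 559 CPM in the Δelav libraries. This is a log2 fold change of −0.76 with a standard error (SE) of 0.0514 (edgeR adjusted p = 3.72e-06). Without the most 3-prime bin of each gene it was −0.40 (adjusted p = 0.000831). Both mutants exceeded wild type, where the gene reached 165 to 184 CPM. Within the gene the difference did not run the same way in all exon bins. The bin with the Q420 codon (517236 to 519242), called the coding bin here, reached 131 ± 4.24 CPM in elavmin and 109 ± 10.1 CPM in Δelav. Wild type had 60.9 ± 1.96 CPM (SD, n = 4 each), so this bin as a whole was above wild type in both mutants. At 2007 bases it is longer than the coding sequence of a 483-residue protein, so its level is not that of coding RNA alone. In the long terminal bin from 509235 to 516849 the values were 157 ± 13.6 CPM in elavmin and 339 ± 19.9 CPM in Δelav, and in the first bin (522986 to 523226) they were 14.9 ± 0.704 and 37.2 ± 2.96 CPM. The coding bin therefore took 38.2% of elav counts in elavmin and 18.6% in Δelav, against 35.2% in wild type. The counts of elav thus separate the 3 genotypes, and the coding bin took its lowest share in Δelav. How far the coding sequence is lost in Δelav cannot be read from a whole bin, and the counts say nothing about the amount of protein.

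**Figure D1:**
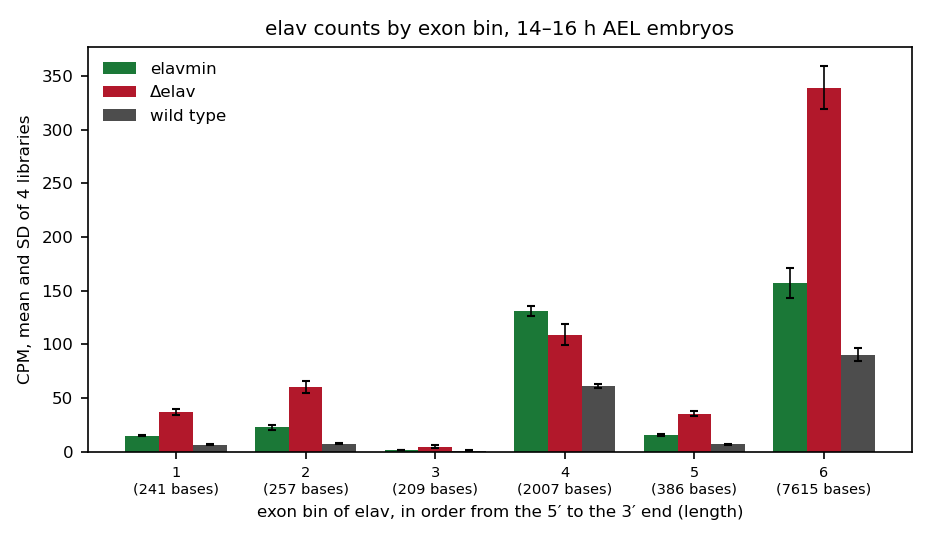
Mean CPM in each exon bin of elav, ordered from the 5′ to the 3′ end of the gene, in elavmin, Δelav and wild type embryos (bars, mean; error bars, SD of 4 libraries; bin lengths in bases under the axis). Δelav is highest in every bin but the coding bin, where elavmin reaches 131 CPM and Δelav 109 CPM.

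The paralogue fne (FBgn0086675, X, 12917477 to 12950417) had 252, 255, 243 and 254 CPM in elavmin and 267, 271, 275 and 261 CPM in Δelav. The elavmin libraries all lay below those of Δelav, but the log2 fold change of −0.09 (SE 0.0403) did not pass the test (edgeR adjusted p = 0.168). Rbp9 (FBgn0010263, 2L, 2954762 to 2968434) had 79.8, 71.9, 71.2 and 75.6 CPM in elavmin and 84.8, 95.8, 84.7 and 83.5 CPM in Δelav, with a log2 fold change of −0.21 (SE 0.0569, edgeR adjusted p = 0.025). This call was lost without elavmin replicate 2 or elavmin replicate 3 (adjusted p up to 0.0651).

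Over the genome, 11337 genes had enough reads to be tested with edgeR's quasi-likelihood test, and 1850 (16.3%) differed at a Benjamini-Hochberg adjusted p under 0.05. Of these, 1050 (9.26%) were higher in elavmin and 800 (7.06%) were lower. Most differences were small. The median absolute log2 fold change of the genes called was 0.35 (quartiles 0.24 and 0.63), and 251 (2.21%) differed at least 2-fold, 201 of them higher (1.77%) and 50 lower (0.441%) in elavmin. The 4 elavmin and 4 Δelav libraries did not overlap for 1671 of the genes called (90.3%) and for 2471 of all genes tested (21.8%). When each library was left out in turn, 955 of the 1850 genes and 199 of the 251 with at least a 2-fold difference were called each time. As the libraries are whole embryos, a lower level can come from fewer cells of a type or from less RNA per cell, and these cannot be told apart.

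**Figure D2:**
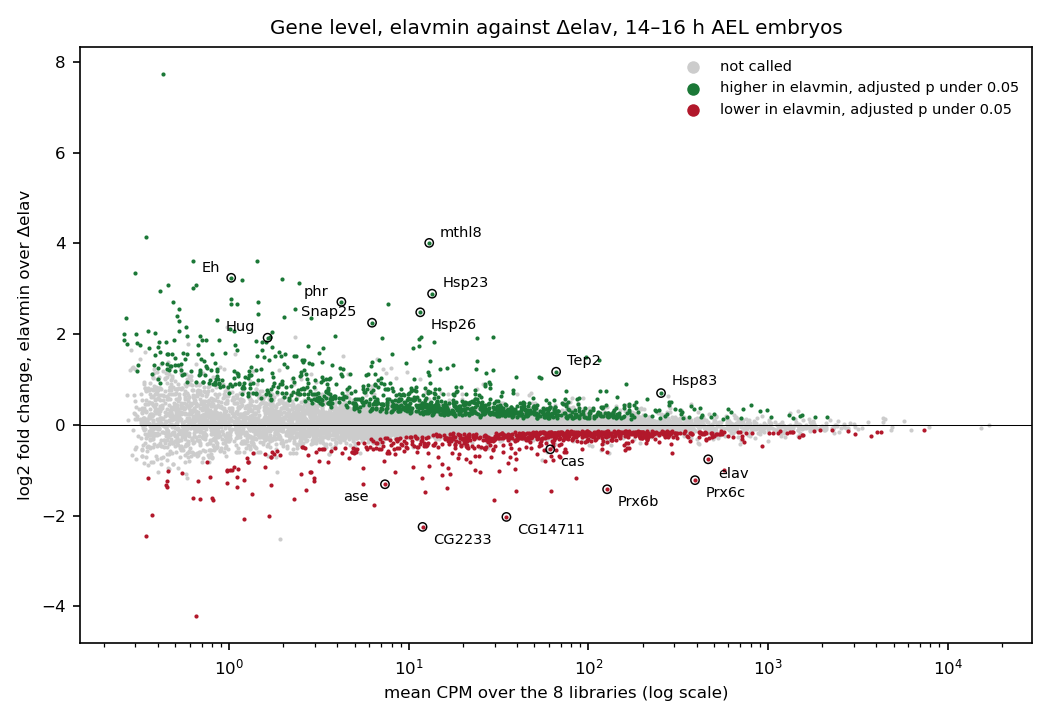
Log2 fold change of elavmin over Δelav (y axis) against mean CPM over the 8 libraries (x axis, log scale) for the 11337 genes tested (points; colours mark the genes called higher or lower, circles the genes named). Higher calls of at least 2-fold (201) outnumber lower ones (50) and lie mostly at low levels.

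Calls were not spread evenly over the range of expression. Among genes under 1 CPM, 101 of 1032 were called higher and 19 lower, and among those from 1 to 10 CPM 334 of 3047 higher and 100 lower. From 10 to 100 CPM the numbers were 506 of 5220 higher and 403 lower, and at 100 CPM or more 109 of 2038 higher and 278 lower. The direction also followed the exonic length of genes. In the shortest quintile (223 to 1230 bases) 194 of 1766 genes were higher and 69 lower, with a median log2 fold change of 0.041, whereas in the longest quintile (4466 to 71820 bases) 80 of 1764 were higher and 275 lower, with a median of −0.060. Across genes, the fold change and log2 length had r = −0.18 over 8830 genes, which share the same 8 libraries. For this reason counts of some lists are also given from a fit in which the relation to length was removed per library. These are the vesicle, channel, axon guidance, ribosomal protein and study target lists. This alternative was chosen after the data had been seen.

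The largest changes were taken among genes called whose libraries did not overlap and whose mean reached 5 CPM in the higher genotype. Among the 15 of these with the largest rise was Snap25 (FBgn0011288, 3L, 24074180 to 24299205), which encodes a SNARE protein of synaptic vesicle fusion. It had 8.04, 11.6, 10 and 11.3 CPM in elavmin, against 2.09, 1.74, 2.66 and 2.17 CPM in Δelav. All elavmin libraries were thus above all Δelav libraries, with a log2 fold change of 2.25 (SE 0.153, edgeR adjusted p = 3.77e-06). In Δelav,fnenFNE it reached 4.94 to 6.72 CPM and in wild type 13.7 to 15.5 CPM, so that the 4 genotypes did not overlap. Relative to wild type, Snap25 changed by −0.53 in elavmin (edgeR adjusted p = 0.00269) and by −2.77 in Δelav (edgeR adjusted p = 5.44e-09). These comparisons share the mutant libraries with the one above and are no independent evidence for it. The gene phr (FBgn0003082, 2R), which encodes a photolyase that repairs UV damage in DNA, had 8.28, 5.78, 6.49 and 8.61 CPM in elavmin and 1.26, 1.06, 1.13 and 1.02 CPM in Δelav (log2 fold change 2.71, SE 0.166, edgeR adjusted p = 1.51e-06). Its levels were 0.837 to 1.54 CPM in Δelav,fnenFNE and 8.71 to 10.6 CPM in wild type. The Δelav,fnenFNE embryos, which carry the same elav allele as Δelav, were thus at the Δelav level for phr but between the mutants for Snap25.

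Another large rise was that of mthl8 (FBgn0052475, 3L, 22428 to 26308), a member of the Methuselah-like family of receptors. It had 25.2, 23.3, 24.7 and 24.4 CPM in elavmin and 4.18, 1.16, 0.81 and 0 CPM in Δelav. The elavmin libraries were close together and also above those of wild type (12.9 to 16.9 CPM), while Δelav spread widely below Δelav,fnenFNE (5.8 to 10.5 CPM). The log2 fold change was 4.01 (SE 0.665, edgeR adjusted p = 0.0105), and it depended on Δelav libraries, with a value of 5.21 without Δelav replicate 1 (adjusted p = 0.00229) and no call without replicates 2 and 3 of both genotypes (adjusted p = 0.301). Other genes that rose had overlapping levels in Δelav and wild type and were above both in elavmin. CG8419 had 13.4, 12.4, 14.1 and 13 CPM in elavmin and 2.23, 1.53, 2.14 and 2.5 CPM in Δelav, against 1.48 to 1.84 CPM in wild type (log2 fold change 2.66, SE 0.127, edgeR adjusted p = 2.37e-07). Pepck2, a phosphoenolpyruvate carboxykinase gene, had 17.5 to 24.6 CPM in elavmin and 5.15 to 7.65 CPM in Δelav, against 5.31 to 6.76 CPM in wild type (log2 fold change 1.82, edgeR adjusted p = 1.83e-05). CG15818 (1.94), CG32182 (1.69) and CG7860 (1.94) had log2 fold changes of like size, and their elavmin libraries likewise lay above those of all 3 other genotypes. In contrast, CG31436 (1.92) and CG43400 (1.89) reached 41.0 to 48.2 and 14 to 17 CPM in Δelav,fnenFNE as well, close to their elavmin levels of 31.0 to 41.0 and 14 to 22 CPM. The call of CG31436 was lost without replicates 2 and 3 of both genotypes (adjusted p = 0.0617). The remaining members of the 15 were Mal-A1, a maltase of the digestive tract (1.70), Cyp6a20, a cytochrome P450 (1.92), and 3 small heat shock protein genes.

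Heat shock genes made up 3 of these 15 rises. Of 27 stress and heat shock genes listed, 21 were tested, of which 9 were called higher and 1, GstD2, lower, with a median log2 fold change of 0.24 against 0.01 over all genes tested (called among all genes, 9.26% higher and 7.06% lower). Hsp23, Hsp26 and Hsp27 encode small heat shock proteins, chaperones that hold unfolded proteins, and lie side by side on 3L between 9376418 and 9385694. Hsp23 had 22.1, 15.6, 24.6 and 32.6 CPM in elavmin, against 3.03, 2.93, 2.95 and 3.93 CPM in Δelav (log2 fold change 2.89, SE 0.237, edgeR adjusted p = 0.000156). For Hsp26 the values were 17.2, 14.1, 21.2 and 25.8 CPM in elavmin and 3.52, 2.66, 3.43 and 4.47 CPM in Δelav (2.48, edgeR adjusted p = 0.000149), and for Hsp27 18, 10.8, 18.4 and 23.1 CPM and 5.13, 3.82, 6.16 and 6.16 CPM (1.73, edgeR adjusted p = 0.00325). In each of these genes elavmin replicate 2 was lowest and replicate 4 highest, and no elavmin library reached down to Δelav. Hsp83, the fly Hsp90, had 331, 291, 315 and 315 CPM in elavmin and 186, 203, 192 and 194 CPM in Δelav (0.70, SE 0.0493, edgeR adjusted p = 4.21e-06). Hsp68 rose by 0.89 (edgeR adjusted p = 0.0131), with means of 2.56 CPM in elavmin and 1.39 CPM in Δelav. In Δelav,fnenFNE Hsp23 had 1.67 to 3.68 CPM and Hsp83 192 to 215 CPM, both beside Δelav, whereas wild type had 32.3 to 62.1 CPM for Hsp23 and 332 to 480 CPM for Hsp83, from near the highest elavmin library upwards. The heat-inducible Hsp70 copies, which are nearly identical and so share reads, had means of at most 1.15 CPM in both mutants, and Hsp70Aa (1.4), Hsp70Ab (1.78) and Hsp70Bb (0.53) did not pass the test. The calls of Hsp67Bc, GstD1, GstD2 and Hsc70-3 were lost when some single libraries were left out, and 7 to 10 genes of the list were then called higher.

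Of the 15 genes with the largest fall by the same rule, CG2233 (FBgn0029990, X, 8035741 to 8037517) fell most, with 4.36, 3.67, 3.83 and 4.61 CPM in elavmin, against 21.1, 21.0, 18.5 and 18.3 CPM in Δelav (log2 fold change −2.25, SE 0.0946, edgeR adjusted p = 1.08e-07). Wild type, at 69.4 to 94.8 CPM, was above both mutants. CG14711 (FBgn0037922, 3R, 11623339 to 11624948) had 14.1, 13.2, 14.4 and 13 CPM in elavmin and 55.0, 42.8, 63.3 and 63.3 CPM in Δelav (−2.03, SE 0.121, edgeR adjusted p = 6.23e-06). In Δelav,fnenFNE it had 11.9 to 13.7 CPM, overlapping elavmin, and in wild type 27.9 to 50.9 CPM. The peroxiredoxin genes Prx6b and Prx6c, neighbours on 2R (10418718 to 10425471), fell by 1.42 and 1.22 on the log2 scale. Prx6c had 229, 246, 247 and 215 CPM in elavmin and 494, 549, 570 and 588 CPM in Δelav, against 828 to 1650 CPM in wild type (SE 0.0644, edgeR adjusted p = 4.93e-07). The call of Prx6b was lost without replicates 2 and 3 of both genotypes (adjusted p = 0.0938). Several of the remaining genes with large falls act in metabolism or detoxification. They were Acox57D-d, an acyl-CoA oxidase (−1.40), Mdr50, an ABC transporter (−1.30), Cyp12e1, a cytochrome P450 (−1.17), Faa, the fumarylacetoacetase of tyrosine breakdown (−1.10), and Ugt303B3, a UDP-glycosyltransferase (−1.03). In Faa it was Δelav that stood apart, with 18.9 to 22.4 CPM against 8.48 to 10.5 CPM in elavmin and 8.84 to 9.38 CPM in wild type. In Mdr50 it was elavmin, with 2.78 to 3.55 CPM against 6.56 to 9.24 CPM in Δelav and 7.23 to 8.54 CPM in wild type. TwdlQ, a Tweedle protein of the cuticle (−1.46), CG9825 (−1.77), CG43799 (−1.48), CG8665 (−1.17), Ir87a, an ionotropic receptor (−1.04), and ase, described with the neuroblast genes, completed the 15.

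**Figure D3:**
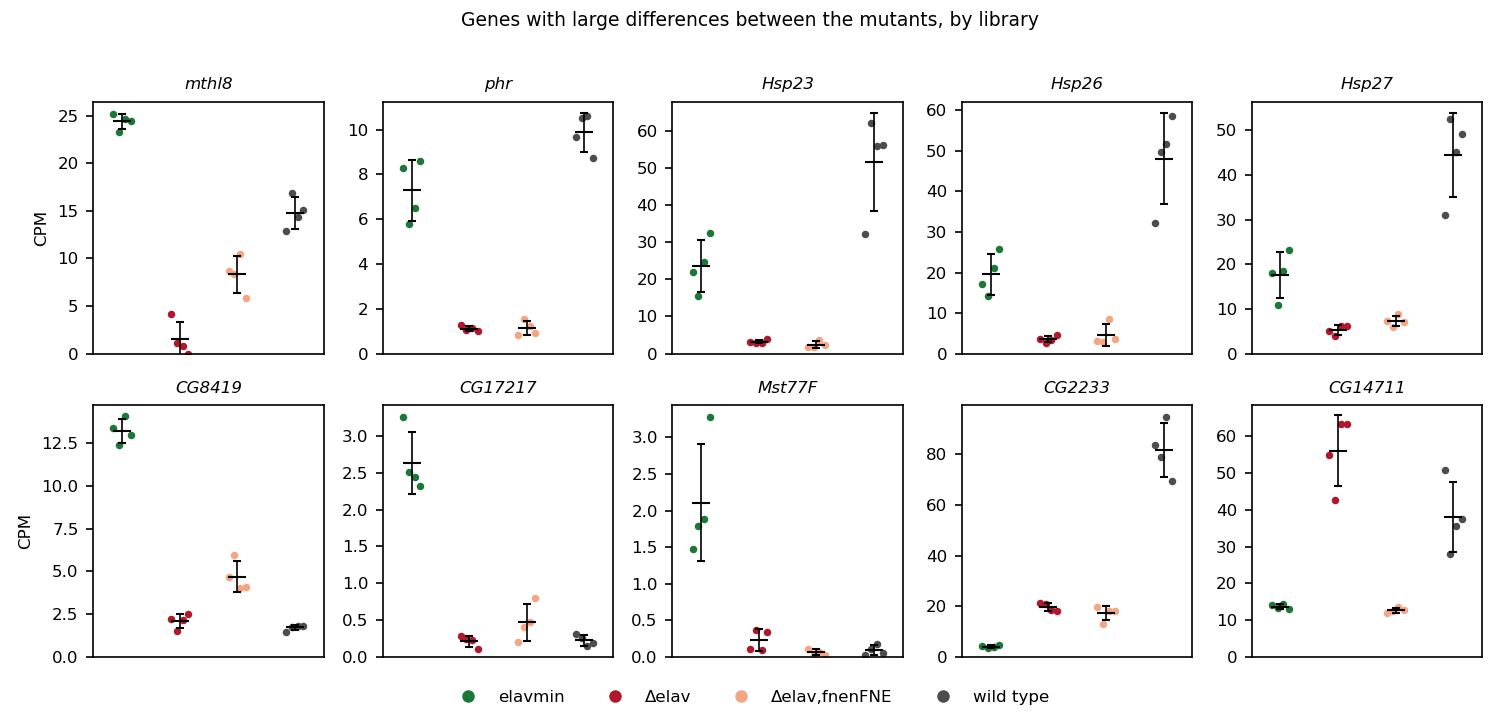
CPM per library (points) with mean and SD of 4 libraries (black) in elavmin, Δelav, Δelav,fnenFNE and wild type for 10 genes with large differences between the mutants. In phr, Hsp23, Hsp26 and Hsp27 the elavmin mean lies between those of Δelav and wild type, in CG8419, CG17217 and Mst77F elavmin is above the other 3 genotypes, and in CG2233 elavmin is below Δelav and both are below wild type. CG17217 and Mst77F were added after their values had been seen.

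Of 15 genes of transmitter synthesis and transport tested, 7 (46.7%, against 9.26% of all genes) were called higher in elavmin and none lower (7.06% of all genes), with a median log2 fold change of 0.31 against 0.01 over all genes. DAT, the dopamine transporter, had 24.7, 30.0, 24.3 and 23.8 CPM in elavmin and 16.7, 19.5, 18.3 and 18.6 CPM in Δelav (0.50, SE 0.0843, edgeR adjusted p = 0.00213), against 21.4 to 27.2 CPM in wild type. SerT, the serotonin transporter, had 13.8, 14.9, 13.4 and 15.1 CPM in elavmin and 9.52, 11.3, 9.72 and 11.2 CPM in Δelav (0.46, edgeR adjusted p = 0.00305), and both mutants were below wild type at 17.9 to 18.5 CPM. The elavmin libraries of DAT overlapped those of wild type, with replicate 2 above them, and those of SerT did not. VGAT, which loads GABA into vesicles (0.36, edgeR adjusted p = 0.0121), and Trhn, the neuronal tryptophan hydroxylase of serotonin synthesis (0.57, edgeR adjusted p = 0.0151), rose as well. So did VGlut, the vesicular glutamate transporter (0.31), Gad1, which makes GABA (0.38), and Tdc2, which makes tyramine (0.32), although these 3 calls were lost when some single libraries were left out. The count of the list was 4 without elavmin replicate 4, and Trhn was not called without replicates 2 and 3 of both genotypes (adjusted p = 0.0871). Glial transporters of the list, Gat (−0.14) and Eaat1 (−0.09), did not pass the test.

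For the vesicle and active zone machinery, 3 of 21 genes were called higher and none lower, with a median of 0.09. The share called in either direction, 14.3%, was near that of all genes, 16.3%. Besides Snap25 these were unc-13, a priming factor of vesicle fusion (0.35, edgeR adjusted p = 0.0107), and nSyb, the neuronal synaptobrevin (0.19, edgeR adjusted p = 0.0136). unc-13 had 413, 465, 425 and 435 CPM in elavmin and 335, 405, 309 and 325 CPM in Δelav, so that elavmin was above Δelav by a margin set by Δelav replicate 2. nSyb had 294, 288, 267 and 291 CPM in elavmin and 250, 262, 246 and 246 CPM in Δelav, and its call was lost without elavmin replicate 1, elavmin replicate 4 or Δelav replicate 4 (adjusted p up to 0.059) and without the most 3-prime bin of each gene (adjusted p = 0.0689). brp (0.09), Syt1 (0.10) and Syn (0.16), which encode an active zone scaffold, the calcium sensor of release and synapsin, did not pass the test. The count was 8 without Δelav replicate 2 and 11 with the relation to length removed, where no gene of the list was lower. Of 28 ion channels and transmitter receptors, 5 were called higher and 1 lower (21.4% in all, against 16.3% of all genes), with a median of 0.14. KCNQ, a potassium channel, had 63.2, 68.3, 62.9 and 69.4 CPM in elavmin and 51.0, 60.4, 49.1 and 47.5 CPM in Δelav (0.35, edgeR adjusted p = 0.00688), and the acetylcholine receptor subunit nAChRalpha4 had 27.3, 36.7, 23.4 and 34.3 CPM and 19.8, 22.1, 18.6 and 19.8 CPM (0.61, edgeR adjusted p = 0.0126). The calls of nAChRalpha3 (0.55), Dop1R1 (0.39), Shal (0.16) and GluRIIC (−0.16) were lost in 5 to 7 of the 8 leave-one-out fits. The number of channels and receptors called higher was 2 without elavmin replicate 2 or 4 or without Δelav replicate 1, 3 or 4. It was 3 without elavmin replicate 1, 9 without elavmin replicate 3 and 13 without Δelav replicate 2, and 14 with the relation to length removed. Without the most 3-prime bin nAChRalpha4 had an adjusted p of 0.0508.

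**Figure D4:**
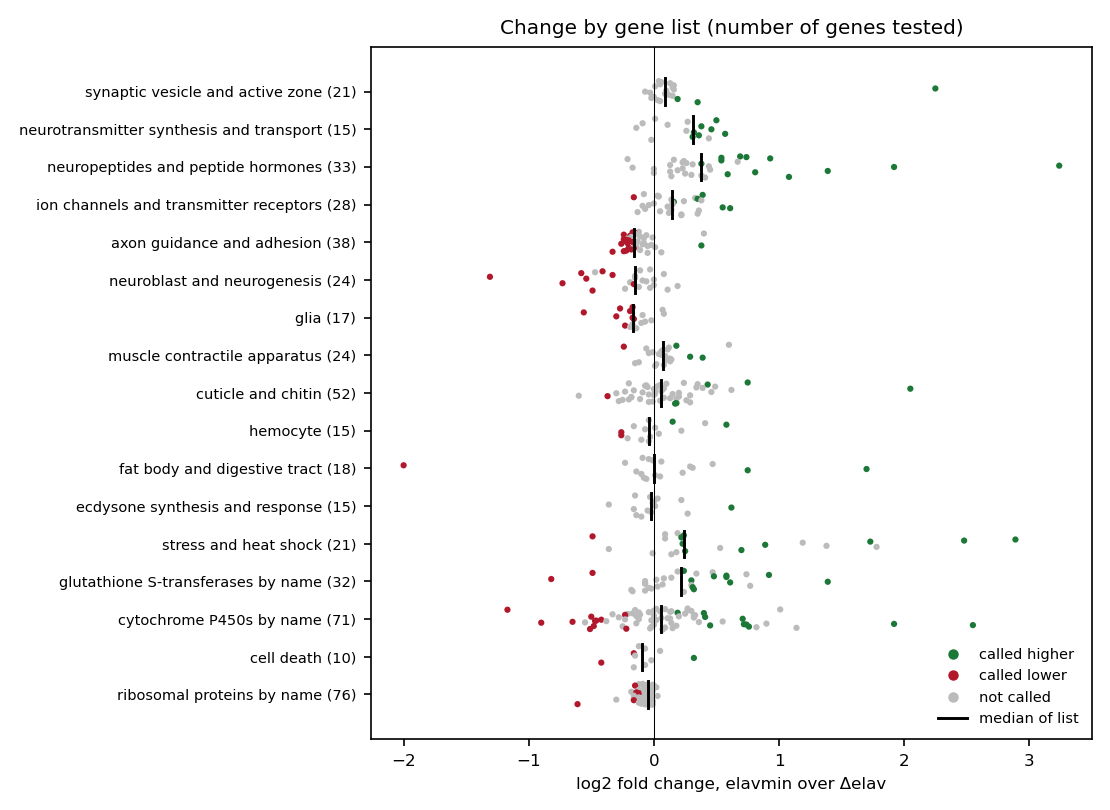
Log2 fold change of elavmin over Δelav for each gene tested (points) in 17 gene lists, with the list's median as a black bar and the number of genes tested in parentheses. Among the lists shown, the medians are highest for neuropeptides (0.38) and transmitter synthesis and transport (0.31) and lowest for glia (−0.17), axon guidance (−0.15) and neuroblasts (−0.15).

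Neuropeptide genes, a list added after the values had been seen, were higher in elavmin in all 12 cases where they differed. Neuropeptides are made as precursors in small numbers of neurons and endocrine cells, cut by convertases and amidated before release. Of 46 genes listed, 43 had counts of their own and 33 had enough reads to be tested, of which 12 were called higher (36.4%, against 9.26% of all genes) and none lower, with a median log2 fold change of 0.38. Genes that passed the filter only through their elavmin libraries had to be higher there, so the count describes the genes tested and not all neuropeptide genes. Eh, the eclosion hormone (FBgn0000564, 3R, 17446642 to 17448858), had 1.68, 2.14, 1.55 and 2.05 CPM in elavmin, against 0.349, 0.239, 0.0324 and 0.169 CPM in Δelav (3.24, SE 0.362, edgeR adjusted p = 0.000139). Its elavmin level lay around that of wild type (1.67 to 1.87 CPM), while Δelav,fnenFNE had 0.37 to 0.743 CPM. Hug, the hugin precursor of feeding control, had 3.02, 3.0, 1.92 and 2.39 CPM in elavmin and 0.802, 0.648, 0.648 and 0.643 CPM in Δelav (1.92, SE 0.207, edgeR adjusted p = 0.000108), against 1.73 to 3.37 CPM in wild type. Ms, myosuppressin, had 4.26, 5.11, 4.17 and 5.33 CPM in elavmin and 1.36, 2.32, 2.14 and 1.42 CPM in Δelav (1.39, edgeR adjusted p = 0.000425), and remained below wild type at 6.94 to 7.85 CPM. Eh and Hug were thus within or beside the wild type range in elavmin, and Ms was between Δelav and wild type.

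Nplp1, at higher counts, had 35.2, 38.3, 33.7 and 35.5 CPM in elavmin and 22.4, 22.5, 17.4 and 19.9 CPM in Δelav (0.81, SE 0.0820, edgeR adjusted p = 7.18e-05), against 40.5 to 45.8 CPM in wild type. AstA, allatostatin A (0.74, edgeR adjusted p = 0.000517), Burs, a subunit of the tanning hormone bursicon (0.93, edgeR adjusted p = 0.00262), natalisin (1.08, edgeR adjusted p = 0.00601), Akh, the adipokinetic hormone (0.69, edgeR adjusted p = 0.0121), Proc, proctolin (0.59, edgeR adjusted p = 0.0026), and AstC, allatostatin C (0.54, edgeR adjusted p = 0.00655), rose too. Of the 12 calls 10 held in each leave-one-out fit, and those of CCHa2 (0.54) and Dh44 (0.38) did not. ITP (−0.17) and CCAP (−0.21) had the lowest fold changes of the list and did not pass the test. Among 6 genes of neuropeptide processing, likewise listed after the values had been seen, amon, the prohormone convertase of the secretory path (0.29, edgeR adjusted p = 0.00584), and Pal2, an amidating lyase (0.45, edgeR adjusted p = 0.0022), were higher and Pal1, its paralogue, was lower (−0.24, edgeR adjusted p = 0.00517).

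Genes of neural progenitors that differed were lower in elavmin. Of 30 genes of neuroblasts and neurogenesis, 24 were tested, of which none was called higher and 8 lower in elavmin (33.3%, against 7.06% of all genes), with a median log2 fold change of −0.15. The proneural gene ase (FBgn0000137, X, 460747 to 463176), expressed in neuroblasts and their daughters, had 4.19, 4.09, 4.33 and 4.24 CPM in elavmin, against 10.2, 9.99, 11.7 and 10.2 CPM in Δelav (−1.31, SE 0.0904, edgeR adjusted p = 3.85e-06). It had 5.72 to 6.78 CPM in Δelav,fnenFNE and 3.09 to 4.1 CPM in wild type, so that Δelav stood above the other 3 genotypes. cas, a zinc finger gene of late-born neuroblast progeny (FBgn0004878, 3R, 5712975 to 5716805), had 50.8, 48.0, 49.5 and 50.3 CPM in elavmin and 72.1, 74.1, 72.2 and 72.9 CPM in Δelav (−0.54, SE 0.0425, edgeR adjusted p = 9.85e-06), against 40.6 to 48.1 CPM in wild type. nerfin-1, a zinc finger gene of newborn neurons, had 15.8, 11.2, 15.1 and 14.0 CPM in elavmin and 22.5, 22.6, 24.3 and 23.9 CPM in Δelav (−0.73, edgeR adjusted p = 0.000469). Its elavmin libraries were all below those of Δelav,fnenFNE, at 25.1 to 29.8 CPM, and of wild type, at 16.2 to 17.4 CPM.

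Further progenitor genes that fell were wor, a Snail-type factor of neuroblasts (−0.49, edgeR adjusted p = 0.00821), Delta, the Notch ligand (−0.41, edgeR adjusted p = 0.000546), and N, the Notch receptor (−0.33, edgeR adjusted p = 0.00102). The lower calls of nub (−0.16) and of the Notch target E(spl)mgamma-HLH (−0.58) were lost when some single libraries were left out. Other defining neuroblast genes did not pass the test, among them dpn (0.00, with means of 6.82 CPM in elavmin and 6.88 CPM in Δelav), mira (−0.19) and pros (−0.12). dap, an inhibitor of the cell cycle expressed at the last division, and insb, a nuclear inhibitor of Notch signalling in the nervous system, were outside the list and were chosen after their values had been seen. dap had 25.7, 23.6, 28.3 and 24.7 CPM in elavmin and 45.1, 44.9, 47.9 and 46.0 CPM in Δelav (−0.84, SE 0.0627, edgeR adjusted p = 7.26e-06). insb had 1.41, 1.42, 2.38 and 1.84 CPM in elavmin and 4.04, 3.0, 4.99 and 4.67 CPM in Δelav (−1.24, edgeR adjusted p = 0.00207). For both genes elavmin overlapped wild type (26.6 to 29.0 CPM for dap and 1.69 to 1.99 CPM for insb). The part of the higher neuroblast marker sums of Δelav in these calls was not tested.

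**Figure D5:**
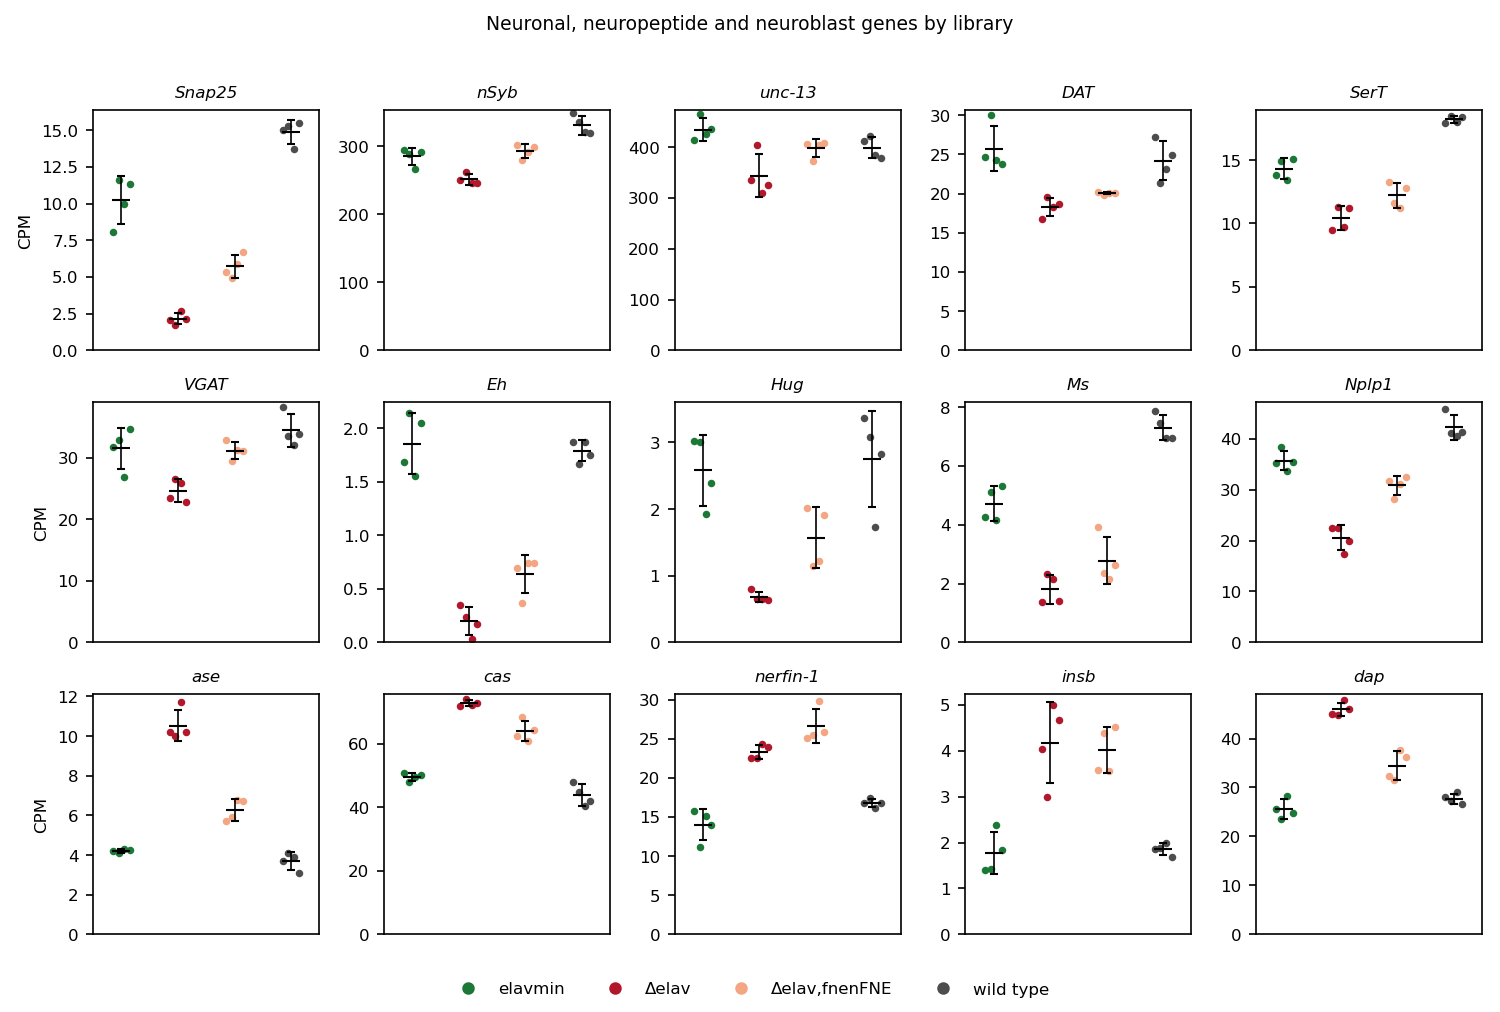
CPM per library (points) with mean and SD of 4 libraries (black) in elavmin, Δelav, Δelav,fnenFNE and wild type for synaptic and transmitter genes, neuropeptide genes and genes of neural progenitors. The Δelav mean is the lowest in each gene of the first 2 rows, as in Snap25 and Eh. In the last row it is the highest except in nerfin-1, where Δelav,fnenFNE is above it, and elavmin lies near wild type.

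Glial genes that differed were lower in elavmin, by small amounts. Of 17 tested, 8 were called lower (47.1%, against 7.06% of all genes) and none higher, with a median of −0.17. The sums of the 6 glial markers, some of them in this list, were also lower in elavmin (604 to 613 CPM against 645 to 674 CPM in Δelav), and their part in these calls was not tested. Gli, gliotactin of the septate junctions that seal epithelia and the blood-brain barrier, had 179, 162, 185 and 175 CPM in elavmin and 210, 222, 210 and 209 CPM in Δelav (−0.27, SE 0.0485, edgeR adjusted p = 0.00308), against 221 to 239 CPM in wild type. Nrx-IV, another septate junction gene, had 280, 273, 286 and 285 CPM in elavmin and 316, 343, 320 and 314 CPM in Δelav (−0.19, edgeR adjusted p = 0.011), against 288 to 295 CPM in wild type. Both genes are also expressed in other epithelia. htl, an FGF receptor of glia and mesoderm (−0.30, edgeR adjusted p = 0.00442), was not called without the most 3-prime bin (adjusted p = 0.306), and Tret1-1, a trehalose transporter (−0.56), was not called without Δelav replicate 4 (adjusted p = 0.0508) or without replicates 2 and 3 of both genotypes (adjusted p = 0.4). repo, which defines glia, had a fold change of −0.17 that did not pass the test (edgeR adjusted p = 0.0989). The count was 3 without Δelav replicate 4 and 5 without elavmin replicate 1 or elavmin replicate 2.

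Genes of axon guidance and adhesion that differed were lower with 1 exception. Of 38 tested, 17 were called lower (44.7%, against 7.06% of all genes) and 1 higher, with a median of −0.15. trn, a leucine-rich repeat protein of cell adhesion, had 57.0, 56.3, 56.6 and 55.8 CPM in elavmin and 77.3, 70.9, 69.1 and 67.8 CPM in Δelav (−0.33, SE 0.0496, edgeR adjusted p = 0.00109). Fas2, an adhesion molecule of axon bundles, had 420, 411, 427 and 417 CPM in elavmin and 471, 494, 484 and 471 CPM in Δelav (−0.19, edgeR adjusted p = 0.00729), against 415 to 427 CPM in wild type. sli, the midline repellent Slit (−0.24, edgeR adjusted p = 0.0119), Wnt5 (−0.26, edgeR adjusted p = 0.00772), Sema2b (−0.21, edgeR adjusted p = 0.00697) and side (−0.22, edgeR adjusted p = 0.00972) were the other members whose lower calls held in each leave-one-out fit. chic, the actin-binding profilin, was the exception with 486, 457, 487 and 453 CPM in elavmin and 367, 309, 395 and 381 CPM in Δelav (0.38, edgeR adjusted p = 0.00354). The number called lower was 7 without elavmin replicate 4, 8 without elavmin replicate 2, 9 without Δelav replicate 4 and 10 without elavmin replicate 1. Genes of this list are long, and with the relation to length removed 11 were called lower, with Fas2 at an adjusted p of 0.0529.

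Listed genes of tissues outside the nervous system were called in both directions. Of 24 genes of the muscle contractile apparatus 3 were called higher and 1 lower, a share of 16.7% that is close to the 16.3% of all genes. Mef2, the transcription factor of muscle differentiation, had 212, 201, 210 and 206 CPM in elavmin and 247, 245, 242 and 248 CPM in Δelav (−0.24, SE 0.0398, edgeR adjusted p = 0.0022). TpnC25D, a troponin C gene, rose (0.29, edgeR adjusted p = 0.00973), with an adjusted p of 0.0505 without replicates 2 and 3 of both genotypes. The higher calls of Act87E and TpnC41C were lost when some single libraries were left out, and 1 gene was higher without elavmin replicate 4 or Δelav replicate 4. Mhc, the muscle myosin heavy chain, had means of 15000 CPM in elavmin and 15700 CPM in Δelav and did not pass the test. Of 52 cuticle and chitin genes, 5 were called higher (9.62%, against 9.26% of all genes) and 1 lower (1.92%, against 7.06%). The cuticle protein gene Ccp84Aa had 161, 162, 115 and 144 CPM in elavmin and 89.3, 96.3, 76.6 and 86.3 CPM in Δelav (0.75, edgeR adjusted p = 0.00222), and Cpr97Ea had 76.3, 75.6, 79.8 and 85.4 CPM and 96.3 to 108 CPM (−0.37, edgeR adjusted p = 0.000848). Cpr47Ea, at low counts, rose by 2.05 (edgeR adjusted p = 0.000854). The chitin deacetylase genes serp (0.18) and verm (0.17) were called higher, but not when some single libraries were left out, and Ccp84Af (0.43) was not called without replicates 2 and 3 of both genotypes (adjusted p = 0.105). Without elavmin replicate 4 the count of higher cuticle genes was 3.

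Among 15 hemocyte genes, 4 of which were called (26.7%, against 16.3% of all genes), NimC1, a receptor for bacteria on plasmatocytes (0.58, edgeR adjusted p = 0.00126), was higher and Pvr, a receptor of hemocyte migration and survival (−0.26, edgeR adjusted p = 0.00556), was lower. The call of Glt (0.15) was lost in 7 of the 8 leave-one-out fits (adjusted p up to 0.136), and that of Tig (−0.26) without Δelav replicate 4 (adjusted p = 0.052). Of 18 fat body and digestive tract genes 16.7% were called, close to the 16.3% of all genes. Mal-A1 rose as given above, and alphaTry, a trypsin (0.75), was not called without elavmin replicate 2, elavmin replicate 4 or Δelav replicate 1. Lip3, a lipase (−2.0), was not called without elavmin replicate 4 (adjusted p = 0.0517). Its value was −3.03 when replicates 2 and 3 of both genotypes were left out. Of 15 genes of ecdysone synthesis and response only MsrA, a methionine sulfoxide reductase induced by ecdysone, was called (0.62, edgeR adjusted p = 0.0243). This is 6.67% of the list, against 16.3% of all genes. The call of MsrA was lost without elavmin replicate 1 or 2 or Δelav replicate 3 or 4 (adjusted p up to 0.063). The receptor gene EcR had means of 106 CPM in elavmin and 109 CPM in Δelav. Among 20 antimicrobial peptide genes 1, Drsl5, had enough reads to be tested, with 17.1, 10.1, 14.9 and 11.5 CPM in elavmin and 9.69, 3.03, 6.74 and 4.67 CPM in Δelav (1.16, edgeR adjusted p = 0.0678, and 0.0181 with DESeq2). Of 10 cell death genes 30.0% were called, against 16.3% of all genes. The death inducer hid was lower (−0.42, edgeR adjusted p = 0.00656), while the lower call of Diap2 (−0.16) and the higher call of the caspase gene Dronc (0.32) were lost when some single libraries were left out. rpr, another death inducer, had a fold change of −0.07 that did not pass the test. lncRNA:roX1, an RNA of the male dosage compensation complex, had 428, 460, 426 and 470 CPM in elavmin and 510, 573, 510 and 508 CPM in Δelav (−0.23, edgeR adjusted p = 0.0135). None of the other 5 genes of dosage compensation tested was called, so 16.7% of that list was called, near the 16.3% of all genes.

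Gene families of detoxification, taken by name after the values had been seen, changed in both directions. Of 32 glutathione S-transferase genes 10 were called higher and 2 lower (37.5% in all), with a median of 0.21, and of 71 cytochrome P450 genes 10 were higher and 11 lower (29.6% in all), with a median of 0.06, against 16.3% of all genes. GstE4 had 3.40, 4.04, 3.62 and 3.76 CPM in elavmin and 1.67, 1.16, 1.62 and 1.22 CPM in Δelav (1.39, edgeR adjusted p = 0.000149), and GstE13 had 12.5, 17.8, 16.7 and 16.2 CPM and 26.4, 31.3, 27.1 and 27.4 CPM (−0.82, edgeR adjusted p = 0.000294). The neighbouring genes Cyp6a9 and Cyp6a20 (2R, 14879356 to 14884046) rose together. Cyp6a9 had 4.22, 4.15, 3.89 and 3.55 CPM in elavmin and 0.628, 0.682, 0.778 and 0.609 CPM in Δelav (2.55, SE 0.156, edgeR adjusted p = 1.51e-06), and Cyp6a20 10.7, 13.6, 9.58 and 11 CPM and 3.0, 3.24, 2.92 and 2.78 CPM (1.92, SE 0.122, edgeR adjusted p = 1.95e-06). Δelav alone was low for both genes, as Δelav,fnenFNE had 5.46 to 7.56 and 10.9 to 12.9 CPM and wild type 3.22 to 3.57 and 6.88 to 10.9 CPM. Reads shared between close relatives in these families may be split differently by the authors' counting. Of 76 ribosomal protein genes 8 were called lower (10.5%, against 7.06% of all genes) and none higher, with a median of −0.05, and 3 to 12 were lower when single libraries were left out (3 without Δelav replicate 1, 3 or 4, 4 without elavmin replicate 2 or 4) and 25 with the relation to length removed. RpS5b, the paralogue of RpS5a enriched in the germline, had the largest fall of them, with 61.7, 54.8, 55.9 and 59.3 CPM in elavmin and 84.7, 108, 83.6 and 79.5 CPM in Δelav (−0.61, edgeR adjusted p = 0.00115).

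Long non-coding RNAs, taken by name after the values had been seen, gave 55 higher and 7 lower calls among the 270 of 1797 with enough reads to be tested. RNAs that passed this filter only through their elavmin libraries had to be higher there, so these counts are a description and nothing is read from their share. An extreme case was lncRNA:CR44349 (FBgn0265449, 3R, 17518210 to 17519084), which was chosen after its values had been seen. It had 108 counts over the 4 elavmin libraries (0.687, 0.375, 1.48 and 0.888 CPM) and none in Δelav or wild type, and 1 count over the Δelav,fnenFNE libraries. Against a floor of 3 counts over the Δelav group it was at least 33.3-fold higher in elavmin (edgeR adjusted p = 0.00303).

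The regions that the study lists as ELAV targets were also taken as genes. The study drew these lists partly on Δelav libraries used here, so they are not independent of them. Of 243 genes with listed neuronal 3′ UTRs, 15 (6.17%) were called higher and 37 (15.2%) lower, with a median of −0.04, and of 170 genes with listed exons 9 (5.29%) were higher and 29 (17.1%) lower, with a median of −0.06. These genes are long. With the relation to length removed, the counts were 34 higher and 23 lower for 3′ UTR genes and 22 higher and 15 lower for exon genes, so the majority turned to the other direction. Single libraries moved these counts as well. The 3′ UTR genes called higher numbered 28 without Δelav replicate 2 and 7 to 9 without elavmin replicate 1, 2 or 4 or Δelav replicate 1 or 4, and those called lower 18 to 24 without elavmin replicate 1, 2 or 3 or Δelav replicate 4. Exon genes called lower numbered 11 without Δelav replicate 4 and 15 to 18 without elavmin replicate 1, 2 or 4, and those called higher 18 without Δelav replicate 2. ewg (X, 268509 to 279718), a transcription factor gene with an ELAV-dependent 3′ end, had 132, 129, 138 and 133 CPM in elavmin and 178, 186, 187 and 180 CPM in Δelav (−0.45, SE 0.0415, edgeR adjusted p = 3.37e-05), against 110 to 118 CPM in wild type. hig, a matrix protein of the synaptic cleft, went in the other direction (0.58, SE 0.0527), with means of 103 CPM in elavmin, 69.3 CPM in Δelav and 90.3 CPM in wild type. When the bins inside the listed regions were left out of all genes, 1027 genes were higher and 819 lower, and 98.5% of the 1850 calls remained in the same direction.

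To describe the differences along development, genes were ranked by their change between fnenFNE control embryos at 7–8 h and wild type embryos at 14–16 h. They were also ranked by their change between those wild type embryos and wild type adult heads. These libraries hold neither mutant. The 7–8 h control carries the fne allele of Δelav,fnenFNE, and the study sequenced its early libraries with another read length. Stage, fne allele and read length thus cannot be told apart in the first ranking. Of the 200 genes that rose most from 7–8 h to 14–16 h (early risers), 35 were called higher in elavmin and 4 lower, with a median log2 fold change of 0.12. Of the 200 that fell most (early fallers), 4 were higher and 26 lower, with a median of −0.09. Of the 200 genes that rose most from embryos to heads (late risers), 23 were higher and 5 lower (median 0.18), and of the 200 that fell most (late fallers) 25 were higher and 8 lower (median 0.08). Among all genes 9.26% were higher and 7.06% lower, against 17.5% and 2.0% of the early risers, 2.0% and 13% of the early fallers, 11.5% and 2.5% of the late risers, and 12.5% and 4.0% of the late fallers. The first 2 lists thus lay on opposite sides of the median over all genes, 0.01, and the last 2 on the same side. The number of early risers called higher was 18 without elavmin replicate 4, 20 without elavmin replicate 1, 21 without Δelav replicate 3 and 22 without elavmin replicate 2, and that of early fallers called lower was 17 without Δelav replicate 3. The late risers called higher numbered 13 without Δelav replicate 1 and 15 without elavmin replicate 1 or Δelav replicate 4. The late fallers called higher numbered 9 without elavmin replicate 4, 12 to 15 without elavmin replicate 1 or 2 or Δelav replicate 3 or 4, and 14 were lower without Δelav replicate 2. Over 8882 genes the change from 7–8 h to 14–16 h and the fold change had r = 0.11 (Spearman 0.04), given as a description over genes that share the same libraries.

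By chromosome, 11.3% of 1803 genes on the X differed, against 15.2% to 20.1% on the arms of the other large chromosomes and 21.1% of 95 genes on chromosome 4. Within 500 kb of elav 3 of 82 genes were higher and 5 lower (9.76%), against 11.3% on the rest of the X. Among these were ase (46.1 kb from elav) and ewg, both given above. arg, which encodes arginase and overlaps elav on the opposite strand, was called higher (0.31, edgeR adjusted p = 0.0365), but not in 6 of the 8 leave-one-out fits. The strand setting of the counting is not given in the sources used here, so reads of arg and elav may not be fully separated. Elsewhere, 70 of the 251 genes with at least a 2-fold difference (27.9%) lay within 10 kb of another, in 30 clusters, 27 of which held changes in 1 direction. The like share over all genes was not computed, and 201 of the 251 genes were higher, so these counts are a description only. Some clusters hold genes that overlap on opposite strands, such as Cht9 and asRNA:CR44703 (2R), whose reads may not be fully separated. Besides the heat shock genes, Mal-A6 and Mal-A8 (2R, maltases), ppk3, Gr59e and Gr59f (2R, channel and taste receptor genes) and CG10182 and CG33337 (3R) rose together. CG10182 had 3.98, 4.15, 3.52 and 5.88 CPM in elavmin and 0.279, 0.784, 0.259 and 0.677 CPM in Δelav (3.13, edgeR adjusted p = 6.51e-05), with wild type at 4.83 to 5.52 CPM. Tep2, a thioester protein of innate immunity, and its neighbour CG18585 (2L, 7689311 to 7701601) were highest in elavmin. Tep2 had 91.6, 103, 99.0 and 72.0 CPM in elavmin, 39.4 to 42.0 CPM in Δelav, 40.9 to 45.7 CPM in Δelav,fnenFNE and 36.2 to 45.2 CPM in wild type (1.17, SE 0.0975, edgeR adjusted p = 4.39e-05). Alleles of these stocks away from elav were not examined, and their part in such clusters was not tested.

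Set beside the further genotypes, the 4 elavmin libraries lay outside all 12 others, above or below, in 587 of the 11337 genes (5.18%) and the 4 Δelav libraries in 314 (2.77%). For Δelav,fnenFNE the number was 352 (3.10%) and for wild type 1014 (8.94%). Over the 16 libraries the first principal component (26.4% of the variance) separated wild type from the 3 mutants, with elavmin at −11.2 to −8.5 and Δelav at −10.4 to −8.3, and the second (17.7%) separated elavmin (15.9 to 30.6) from Δelav (−19.6 to −8.1). Among the 1850 genes that differed between the mutants, elavmin stood apart in 491 (26.5%), Δelav in 259 (14.0%) and wild type in 189 (10.2%). In the 251 genes with at least a 2-fold difference the numbers were 96 for elavmin (78 above the rest and 18 below), 43 for Δelav (15 above and 28 below) and 19 for wild type. These genes were chosen by the difference between elavmin and Δelav, so these shares describe them and test nothing. Against wild type, 3414 of 11506 genes tested (29.7%) differed in elavmin and 2573 of 11345 (22.7%) in Δelav.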

How the data were processed

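Stranded mRNA-seq libraries (paired-end) had been counted by the authors per exon bin on dm6 with the Ensembl 96 annotation within snakePipes 2.5.1, and raw counts were deposited beside the authors' DEXSeq 1.38.0 comparisons, which were not used. The labels' processing notes name STAR, Subread and featureCounts without versions, while the study's methods name HTSeq for the exon bins, and the strand setting of counting is not given in the sources used here. Counts of 84619 bins were summed over 17027 genes or merged genes (626 overlapping genes that the authors merged), so that a read spanning several bins can be counted in each. Libraries held 28865495 to 36497233 counts. Genotypes were taken from the labels. elavmin and Δelav were compared with edgeR 4.0.16 (R 4.3.3), using filterByExpr, TMM scaling, a robust quasi-likelihood fit on genotype and Benjamini-Hochberg adjustment over all genes tested. All adjusted p-values are from edgeR unless DESeq2 1.42.0 is named, and comparisons with wild type were fitted separately. CPM used TMM-scaled sizes of the 16 late-embryo libraries. SD is between libraries. SE was derived from the log2 fold change and the F statistic of the quasi-likelihood test.

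On simulated counts for 11260 genes of this comparison, the test recovered 96% of 100 changes of log2 1 and 71% of 100 changes of log2 0.5, with 6 false calls. The changed genes were drawn from those above 2 CPM, and counts were drawn independently for each library. These figures need not hold for genes of lower level or where libraries vary together. Named genes were elav, fne and Rbp9, and the 15 largest rises and 15 largest falls. The rises and falls were called, with libraries not overlapping, a mean of at least 5 CPM in the higher genotype, not merged and with a symbol. Per list, up to 4 called members whose libraries did not overlap were named, or the 2 of highest level where none was called. Further genes named were listed members, members of families taken by name, neighbours in clusters, or genes chosen after their values had been seen. The study's methods state no gene-level test. The members and lists were chosen with earlier results of these data known. Alternatives to these settings, 21 in number, are given in the closing section. Sequence was read from RefSeq's dm6 genome.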

Additional observations from a re-analysis of the deposited data

Results flagged for a closer look

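Among 152 sets of 4 libraries (elavmin or Δelav values of the genes named), 11 had 1 library far from the other 3 by Dixon's criterion, and chance gives about 1 in 20. Δelav replicate 2 was the high library in 4 genes, with 646 CPM for elav (559 to 569 CPM in the other Δelav libraries), 95.8 CPM for Rbp9 (83.5 to 84.8), 222 CPM for Gli (209 to 210) and 573 CPM for lncRNA:roX1 (508 to 510). Δelav replicate 3 was high for Acox57D-d, with 27.6 CPM (22.0 to 22.9), and for ase, with 11.7 CPM (9.99 to 10.2). Δelav replicate 4 was high for Hsp23, with 3.93 CPM (2.93 to 3.03), and for Lip3, with 4.97 CPM (1.64 to 2.09). Among elavmin libraries, replicate 2 was high for DAT, with 30.0 CPM (23.8 to 24.7), and low for GluRIIC, with 43.3 CPM (46.8 to 47.4), and replicate 4 was low for CG31436, with 31.0 CPM (39.7 to 41.0). Apart from elav and Rbp9, these genes had been named only because their elavmin and Δelav libraries did not overlap. Their lack of overlap therefore says nothing about the outlying libraries. The libraries of elav and Rbp9 did not overlap either. The calls of Rbp9, GluRIIC and Lip3 were lost when some single libraries were left out.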

How the results depend on the processing

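Numbers of genes higher and lower in elavmin, 1050 and 800, stayed within 1.5 times with DESeq2 (1151 and 975), its size factors (997 and 852), no filter on low counts (1056 and 791), all 4 genotypes in a single fit (1068 and 936), without bins in the study's regions (1027 and 819), without the most 3-prime bin (950 and 725), without merged genes (982 and 762), with muscle and cuticle genes left out of the library sizes (991 and 884), and, chosen after seeing the data, with exonic length removed (1106 and 810) or replicates 2 and 3 of both genotypes left out (838 and 605, with 58.0% of the 1850 calls among them). Stricter thresholds left 467 and 292 (adjusted p under 0.01) or 201 and 50 (at least 2-fold). Leaving out single libraries gave 696 (without elavmin replicate 1) to 1128 (without Δelav replicate 2) higher and 467 (without Δelav replicate 4) to 882 (without Δelav replicate 2) lower genes, and 526 lower without Δelav replicate 1. No call turned its direction in any of these fits.

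The letters of replicates were checked for pairing. Deviations of libraries with the same letter correlated across genes at 0.03, 0.28, 0.35 and −0.01 for replicates 1 to 4, and those with other letters at −0.32 to 0.09. Replicates 2 and 3 thus deviated in like ways in both genotypes, and replicates 1 and 4 did not. The main fit held no block for the letters, and a shared origin of replicates 2 and 3 was not tested. With a replicate block 1530 genes were higher and 1206 lower. Of the 73 named genes, 21 lost their call in at least 1 alternative and Drsl5 gained one in 3, the cause of which was not tested. Depth limits the genes under 1 CPM most, where few reads stand behind a value, and a floor of 3 counts over a genotype was used for a gene without reads.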

Other observations

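Several genes of low level, chosen after their values had been seen, were higher in elavmin than in Δelav and wild type. Genes that passed the filter only through their elavmin libraries had to be higher there. The values and adjusted p-values of this section are therefore a description, and nothing is read from them. Among them are genes known from the testis. Mst77F, a protein of sperm chromatin, had 1.48, 1.79, 1.89 and 3.28 CPM in elavmin, against 0.105, 0.375, 0.0972 and 0.338 CPM in Δelav (log2 fold change 3.19, SE 0.403, edgeR adjusted p = 0.000368). Its reads cannot be told apart with certainty from those of near-identical copies on the Y chromosome. knon had 0.858, 1.07, 0.68 and 1.09 CPM in elavmin and 0.209, 0.205, 0.259 and 0.271 CPM in Δelav (1.96, edgeR adjusted p = 0.000848). CG17217 (2L, 12170550 to 12171232) had 3.26, 2.51, 2.44 and 2.32 CPM in elavmin and 0.279, 0.239, 0.227 and 0.102 CPM in Δelav (3.62, edgeR adjusted p = 5.68e-06).

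The neighbours CG33922, Cdlc2 and lncRNA:CR45005 (2L, 1343443 to 1345840) rose together. Cdlc2, a dynein light chain gene, had 1.82, 3.26, 2.1 and 2.77 CPM in elavmin and 0.384, 0.477, 0.227 and 0.44 CPM in Δelav (2.71, edgeR adjusted p = 7.07e-05), and the log2 fold changes of CG33922 and lncRNA:CR45005 were 2.77 and 3.02. CG31220, with 0.376 to 0.804 CPM in elavmin and at most 0.0677 CPM in Δelav, had a fitted log2 fold change of 4.13 (edgeR adjusted p = 0.000427), which at so few Δelav reads depends on the prior count. In each of these genes all elavmin libraries were above those of Δelav and of wild type, which is bound up with how they were chosen.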
